A study of Sebastes mystinus with 44 samples.

Results

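The features described here are 150 assembled transcripts of blue rockfish white muscle whose level differed between 12 h and 2 weeks in control fish but hardly differed between the same times in fish held at low oxygen. They were chosen by their measured values. For each feature, CPM is the count for each 1000000 counts of the library, and L is log2(CPM + 1) averaged over the fish of a group. Of the 239549 features in all, 155573 had a count in any library, 8138 had a mean of 5 to 500 CPM over the 30 libraries of 12 h and 2 weeks, and 3323 of those differed by less than 0.25 in L between low-oxygen fish at 2 weeks and at 12 h. The members are the 150 of these with the largest absolute difference between control fish at 2 weeks and at 12 h. The control and low-oxygen values at 12 h and 2 weeks, from 16 fish, made the choice and are given as a description. Test counts between these times in those fish are printed, but the choice itself can set them, so nothing is read from them. The other 28 fish had no part in the choice.

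White muscle makes up most of the body of a bony fish and consists of fast fibres that work largely without oxygen during bursts of swimming. Low oxygen is known to shift fish muscle towards anaerobic energy supply and to slow costly processes such as protein synthesis. High carbon dioxide acidifies body fluids, which marine fish counter mainly by taking up bicarbonate and exporting acid across the gills. Features are known only by their assembly identifiers, so no function can be given for any member, and the tissue could not be checked against marker genes.

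The study sampled juvenile blue rockfish (Sebastes mystinus) kept in aquaria with flowing seawater, with 44 fish in 12 groups made of 4 exposures and 3 times, to ask how muscle expression responds to high pCO2 and hypoxia. The exposures are control, pH (pH lowered with carbon dioxide), DO (oxygen lowered with nitrogen) and cross. Cross has no definition in the labels, and outside knowledge of the study makes it the combination of both. There were 2 fish in pH at 2 weeks, 3 in pH and 3 in DO at 24 h, and 4 in every other group. All groups shared the juvenile stage, the seawater supply and the dissection of white muscle after 12 h, 24 h or 2 weeks. Each fish was sampled once, so a difference between times is a difference between fish, and time in the aquaria, growth and sampling day cannot be told apart. Which aquarium and library set a fish belonged to is not known here, fish of a group may share an aquarium, and p-values measure only the spread between these fish. Cross fish carry numbers far apart from those of all other fish, so handling of cross fish and their exposure cannot be told apart in comparisons of cross with other groups.

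Libraries held 9885000 to 36693000 counts, so that 3 counts, the limit that a count of 0 allows, corresponded to 0.0818 to 0.303 CPM. The 100 most abundant features took 42.1% to 64.9% of a library. Their median share at 12 h was 62.2% in DO fish, 55.9% in controls, 55.1% in pH and 51.1% in cross fish. At 2 weeks it was 56.8% in DO fish, 54.8% in controls, 60.4% in pH and 59.8% in cross fish. A larger share of abundant features lowers the CPM of all others, so results were also computed on CPM scaled by TMM, a factor per library that sets aside such shifts in composition. With the plain CPM of the rule, the median feature of the level range moved by 0.21 in controls, by 0.16 in DO fish, by -0.31 in pH fish and by -0.11 in cross fish between 12 h and 2 weeks, and with TMM by 0.00, -0.02, -0.02 and -0.12 (log2).

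Of the 150 members, 57 were higher and 93 were lower at 2 weeks than at 12 h in control fish, and they are called upward and downward members below. The absolute control difference ran from 1.05 to 2.82 with a median of 1.29 on the log2 scale. The last member had 1.0466 and the first feature left out 1.0452, and at the other limit the low-oxygen difference was 0.2488 just inside and 0.2524 just outside. Mean levels ran from 5.01 to 401 CPM with a median of 11.9 CPM. In 103 members the control fish of the 2 times did not overlap on plain CPM, which held for 19.9% of all features tested. All 150 passed the low-count filter, and edgeR, whose calls are at an adjusted p under 0.05 over 34070 features, called 108 of them between control fish at 2 weeks and 12 h, where 14.1% of all features were called. It called 0 between low-oxygen fish, where 0.434% of all were called. The fish of both contrasts chose the members, so these counts cannot serve as a test, and nothing is read from them.

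Among the downward members, TRINITY_DN45165_c4_g3 had the largest control difference. In control fish at 12 h it stood at 25.9, 40.8, 39.2 and 27.8 CPM, and at 2 weeks at 2.41, 4.25, 3.11 and 6.09 CPM. In DO fish it stood at 5.34, 12.5, 4.03 and 5.65 CPM at 12 h and at 5.63, 6.36, 4.64 and 6.57 CPM at 2 weeks. The low-oxygen fish were thus low at 12 h, below every control fish of that time, though these values chose the member. At 24 h DO fish stood at 5.12, 48.0 and 9.85 CPM and control fish at 7.54, 113, 73.4 and 88.2 CPM. The high level was thus seen in a DO fish of 24 h and missing in a control fish of that time. At 12 h the pH fish stood at 11.7, 35.1, 42.8 and 21.7 CPM and cross fish at 87.0, 50.7, 4.72 and 42.7 CPM, so that most of them shared the high level of the controls. At 2 weeks pH fish stood at 1.88 and 7.49 CPM and cross fish at 4.44, 5.69, 5.41 and 4.47 CPM. All groups were low at 2 weeks.

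The second downward member named for its control difference, TRINITY_DN47812_c3_g3, was abundant. It stood at 505, 244, 195 and 464 CPM in control fish at 12 h and at 30.9, 61.4, 98.2 and 39.0 CPM at 2 weeks. DO fish stood at 173, 301, 112 and 74.9 CPM at 12 h and at 368, 79.2, 164 and 66.1 CPM at 2 weeks. Here the DO fish were spread over the space between both control times, with overlap at either end. In pH fish at 2 weeks it stood at 30.2 and 39.0 CPM against 191 to 474 CPM at 12 h, and the log2 fold change was -2.75 (SE 0.86, adjusted p = 0.0448 in edgeR, lower in 2 of 2 fish). In cross fish the difference was -1.83 (SE 0.63, adjusted p = 0.0704), which did not pass the test.

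The upward members named for their control difference were more variable. TRINITY_DN55582_c2_g9 stood at 22.96, 8.62, 4.70 and 8.18 CPM in control fish at 12 h and at 52.3, 36.5, 26.3 and 86.9 CPM at 2 weeks. DO fish stood at 32.6, 5.11, 29.6 and 16.6 CPM at 12 h and at 10.0, 25.6, 23.7 and 16.8 CPM at 2 weeks. At 2 weeks every DO fish was below every control fish on plain CPM, though narrowly, with 25.6 CPM in DO fish Mys58 and 26.3 CPM in control fish Mys51. The TMM factor was larger in that control fish, 1.21 against 1.03, which puts its scaled level below that of Mys58. The separation on plain CPM thus did not hold with TMM. These values also chose the member, so nothing is read from their order. The other, TRINITY_DN51991_c4_g2, was near 0 in some fish and at several CPM in others within most groups. At 12 h it stood at 5.998, 0.236, 0 and 7.05 CPM in controls and at 0, 22.2, 0.144 and 12.3 CPM in DO fish. At 2 weeks it stood at 9.48, 22.8, 9.67 and 9.12 CPM in controls and at 0.202, 13.4, 12.2 and 0.0664 CPM in DO fish. Such a spread within groups, with fish at either extreme at both times, makes its group means depend on single fish.

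**Figure D1:**
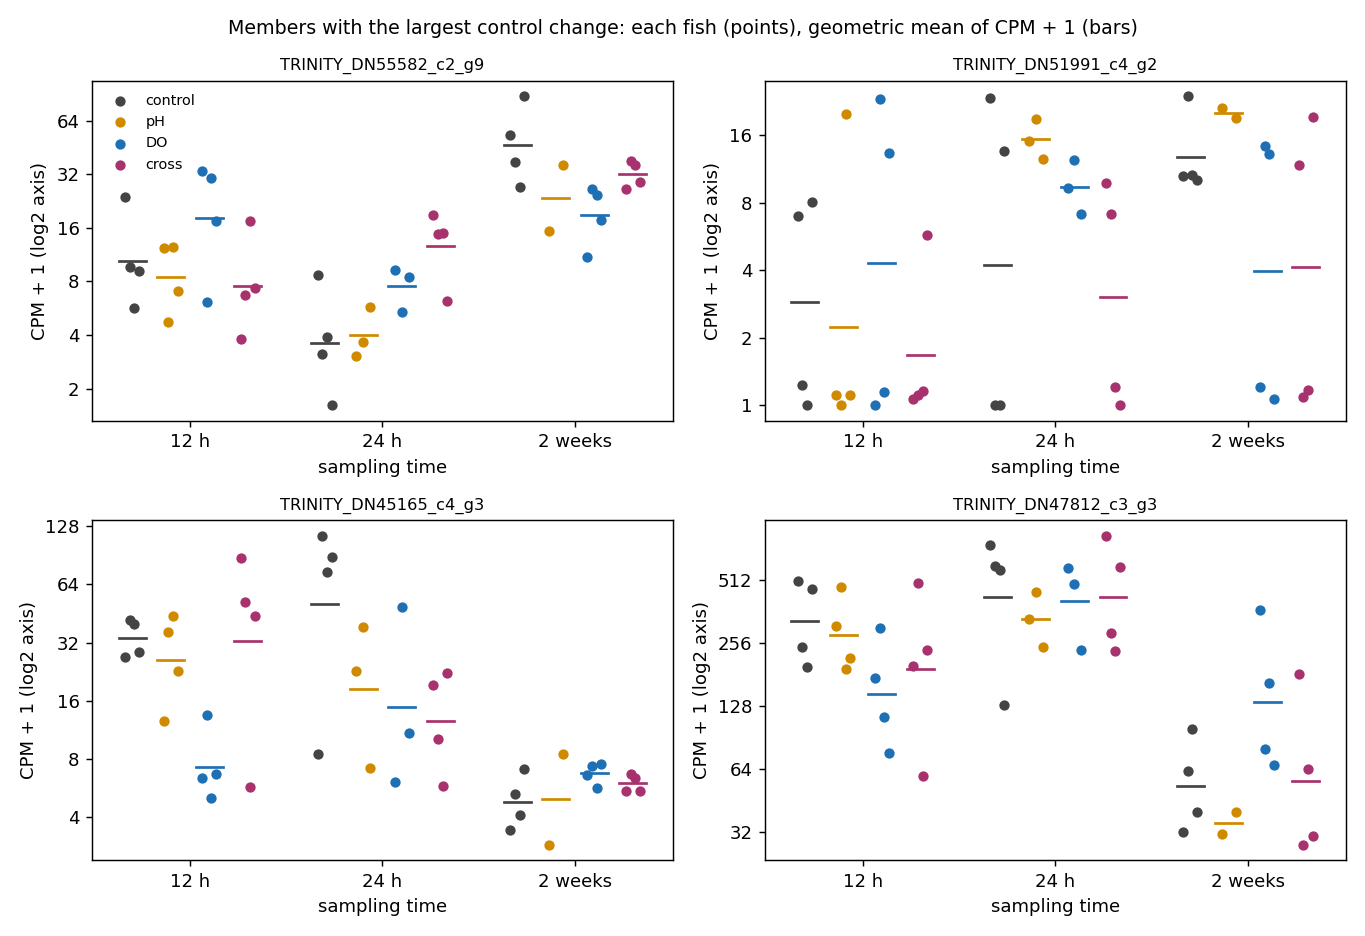
CPM + 1 on a log2 axis of the named members with the largest control difference, by sampling time and exposure, each point a fish and each bar the geometric mean of its group. TRINITY_DN45165_c4_g3 was at 25.9 to 40.8 CPM in control fish at 12 h and at 4.03 to 12.5 CPM in DO fish of that time, while at 2 weeks all groups were low.

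To describe all members on a common scale, each feature's difference from the control mean at 12 h was signed so that the control change is positive, and for downward members a positive shift is thus a lower level. The levels of DO fish at 12 h and 2 weeks are given here as a description. The median shift over the 150 members was 0.77 in DO fish at 12 h, against 0.16 in pH and 0.12 in cross fish, and it was 0.86 in DO fish at 2 weeks, against 1.29 in control, 1.49 in pH and 1.11 in cross fish. These shifts all share the control fish at 12 h, and the DO values were limited by the choice of members. A group that is flat where controls change must lie away from the controls at 1 time or both. Nothing is therefore read from where the DO fish lay. Being lower in such bulk samples cannot be told apart from holding fewer cells of the type that expresses a feature. With TMM the shift of DO fish was 0.68 at 12 h and 0.85 at 2 weeks, and that of control fish at 2 weeks 1.40. The medians of DO fish thus lay between those of controls under either scaling, which the choice of members itself can set.

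Downward and upward members looked unlike each other with plain CPM, and that contrast depended on the scaling. With plain CPM, DO fish at 12 h were nearer to the control level of 2 weeks than to that of 12 h in 83 of 93 downward members and in 8 of 57 upward members. With TMM the counts were 39 of 93 and 28 of 57. The median shift of DO fish at 12 h was 0.96 in downward and 0.32 in upward members with plain CPM, against control changes of 1.35 and 1.18. With TMM it was 0.74 and 0.54, against control changes of 1.52 and 0.98. At 2 weeks DO fish were nearer to the control level of 2 weeks in 82 of 93 downward and 19 of 57 upward members with plain CPM, and in 76 and 24 with TMM. Under both scalings this was most of the downward members and a minority of the upward members. With plain CPM it held for 61.6% of the level range and for 86.3% of the comparison set described below. The control and DO values of 12 h and 2 weeks chose the members, so nothing is read from these counts.

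The members can be divided by where the mean of the DO fish of both times lay along the control change. In 42 members it had gone over 75% of the way to the control level at 2 weeks, and 4 of these were upward. In 31 it had gone under 25% of the way, and 27 of these were upward. The other 77 lay between, 26 of them upward. The classes were taken from plain CPM and from the values that chose the members. How flat the DO fish were also depended on the scaling, since with TMM 85 of the 150 members stayed within the limit of 0.25, 34 of 93 downward and 51 of 57 upward. The median DO difference of the downward members was then 0.29 in the direction of the controls.

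**Figure D2:**
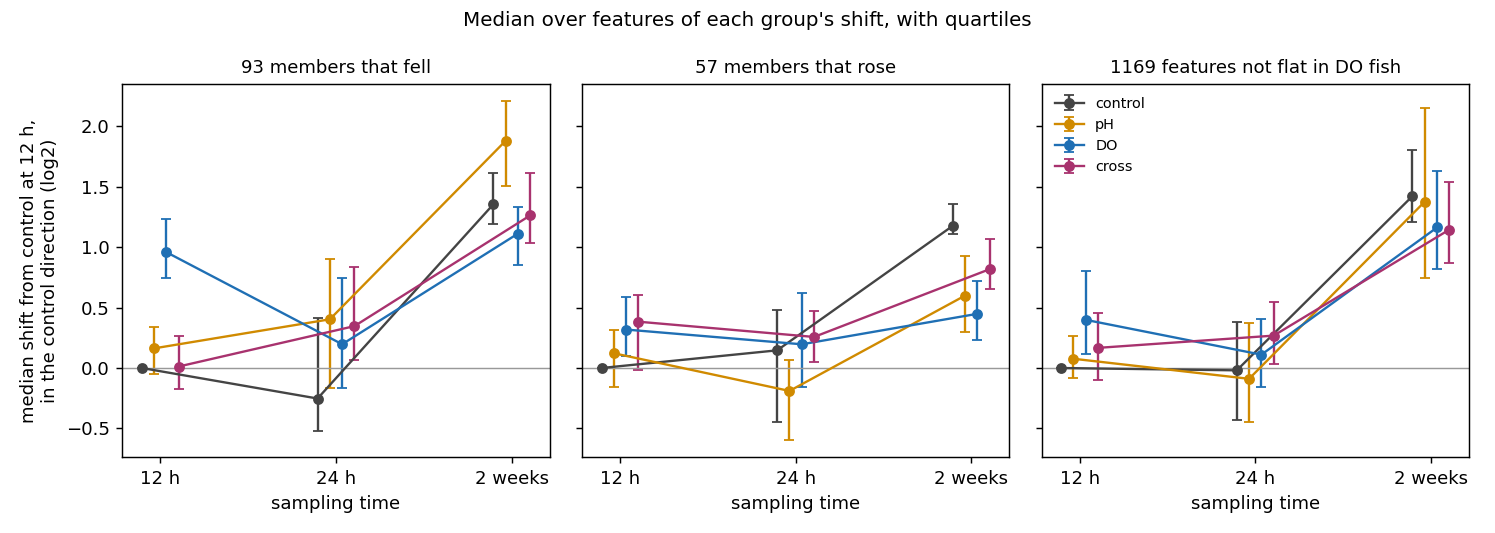
Median over features, with quartiles, of each group's shift from control fish at 12 h (log2, signed so that the control change is positive), by sampling time, for downward members, upward members and the comparison set. DO fish stood at 0.96 in downward members at 12 h with plain CPM (0.74 with TMM) and at 0.32 in upward members (0.54 with TMM), so the contrast between the panels depends on the scaling.

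The 24 h fish were not used in the choice. In them the median shift of the members was 0.20 in DO fish at 24 h, against -0.15 in controls, 0.06 in pH and 0.28 in cross fish. DO fish at 24 h were nearer to the control level of 2 weeks in 38 of 150 members, against 91 at 12 h and 101 at 2 weeks. With TMM the 24 h count was 39 and the shift 0.25. The values at 12 h and 2 weeks chose the members, and the choice alone can give such a gap to 24 h, so nothing is read from it.

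Between DO and control fish at 24 h, edgeR called 0 members and 0% of all features, with 28 members and 3692 of all features at an unadjusted p under 0.05 and a smallest adjusted p among members of 0.182. DESeq2 called 6 members and 0.411% of all features, and limma voom 20 members and 3.78% of all. On TMM-scaled CPM, used for this and the later overlap counts, fish did not overlap in 7 members, or 4.67%, where 5.50% of all features had no overlap. Without control fish Mys25 edgeR called 11 members, where 1.86% of all features were called. That fish stood apart from the other control fish of 24 h. In the downward members its mean shift was 0.81, against -0.49, -0.40 and -0.39 in the others, and the 100 most abundant features took 60.3% of its counts, against 47.1%, 48.9% and 50.9%.

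In both other groups with 3 fish at 24 h, the fish with the smallest abundant share had the highest level of the downward members. In DO fish at 24 h the mean shift of these members was 0.73, 0.61 and -0.25, and the abundant share was 61.2%, 60.04% and 42.1% in the same order. In pH fish at 24 h the shift was 0.65, 0.77 and -0.08, and the share 64.5%, 59.1% and 49.8%. Other groups did not all share this order. In control fish at 12 h the largest share, 63.0% in Mys15, went with a shift of 0.05, and 54.01% in Mys13 with 0.33. In cross fish at 12 h, Mys7067 had 62.0% and a shift of 0.16, and Mys7066 had 54.7% and 0.61. With TMM the DO fish at 24 h came to 0.42, 0.46 and 0.59 and the pH fish to 0.19, 0.51 and 0.13, while control fish Mys25 stayed above the others of its group at 0.62, against -0.25 to -0.10.

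At 12 h, when all were scored with plain CPM, DO fish had mean shifts of the downward members of 1.25, 0.63, 1.19 and 1.18, with abundant shares of 63.4%, 57.1%, 62.5% and 61.9%. Control fish ran from -0.29 to 0.33, pH fish from -0.13 to 0.58 and cross fish from -0.39 to 0.61. No fish of another exposure reached the lowest DO fish, Mys22. With TMM the DO fish had 1.06, 0.34, 1.04 and 0.94, and Mys22 then fell within the range of control fish, -0.26 to 0.44, and of cross fish, -0.21 to 0.69. The other DO fish stayed above all 12 h fish of the other exposures. Control and DO fish of 12 h chose the members, which alone can set DO fish apart, so nothing is read from this order. The part of the abundant features in these shifts beyond what TMM removes was not tested.

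**Figure D3:**
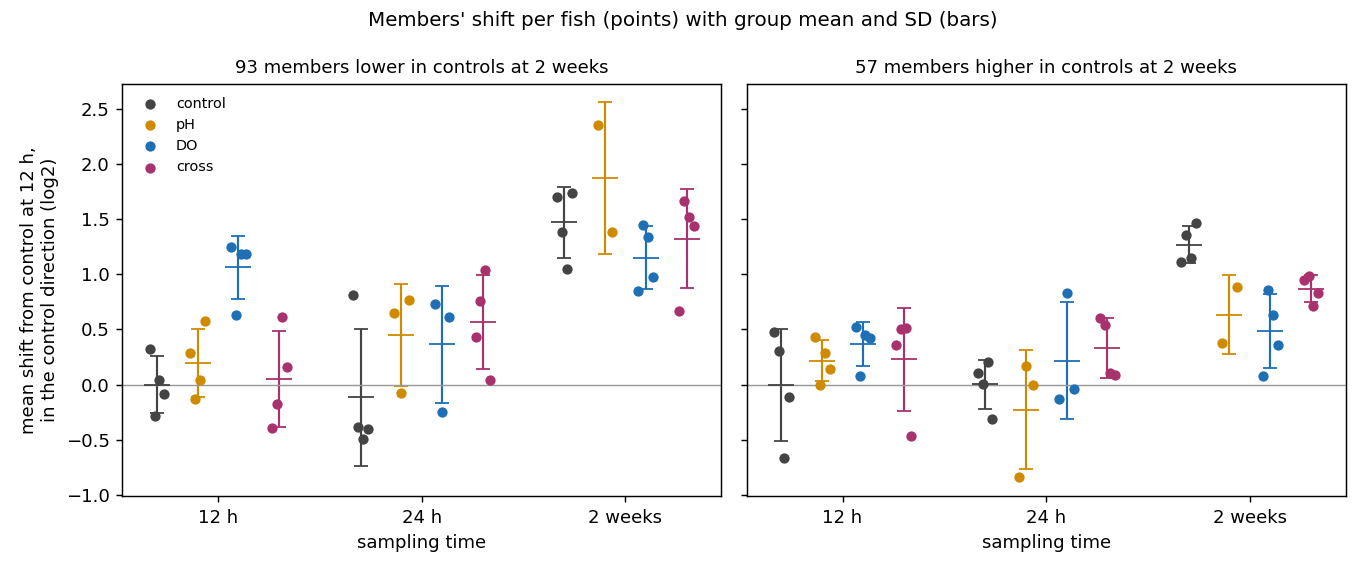
Mean shift of the members from control fish at 12 h (log2, signed so that the control change is positive, plain CPM) in each fish, by sampling time and exposure, with group means and SD as bars. For downward members the DO fish at 12 h sit at 0.63 to 1.25, above the other fish of that time, which the choice of members itself can set. With TMM the lowest of them, at 0.34, lies among control fish.

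In most members the pH and cross fish differed between times in the direction of the controls. Between 12 h and 2 weeks, 135 of 150 members (90%) in pH fish and 132 (88%) in cross fish differed in the direction of the controls, where 65.7% and 70.9% of all features of the level range did so. The median difference in that direction was 1.28 in pH fish and 1.05 in cross fish, against 1.29 in controls. The direction was the same as in controls in both exposures for 124 members and opposite in both for 7. In the level range 55.2% of features had the control direction in both. The level range had smaller control changes, with a median of 0.48, and features with control changes as large as in the members are given below. With TMM the counts were 140 for pH and 132 for cross fish, and the medians 1.19 and 1.05. In the level range 6194 of 8138 features in pH and 5745 in cross fish then had the direction that controls had with plain CPM. The controls themselves kept that direction with TMM in 7153 features of the level range and in all 150 members. With plain CPM, the difference exceeded that of the controls in 68 members in pH fish and in 42 in cross fish. It did so in 2969 and 2339 of 8138 features of the level range, and in 483 and 249 of 1169 of the comparison set described below. The members' control differences were chosen for being large, so nothing is read from these counts. The absolute difference was under 0.25 in 15 and 19 members, or 10.0% and 12.7%, against 26.6% and 36.6% of the level range. With TMM these members numbered 10 and 19.

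With plain CPM, the direction of the controls was seen in nearly all downward members and in about 3 of 4 upward members. In pH fish 91 of 93 downward members were lower at 2 weeks, with a median fall of 1.69, and in cross fish 89 of 93 were, with a median of 1.24. Of the upward members, 44 of 57 in pH and 43 of 57 in cross fish were higher, with medians of 0.46 and 0.49. With TMM 51 of 57 upward members in pH and 43 in cross fish were higher, and 89 of 93 downward members were lower in each. The upward medians were then 0.76 in pH and 0.49 in cross fish, and the downward ones 1.43 and 1.24. The gap between upward and downward members in pH fish was thus smaller with TMM. The difference between both kinds of members was not tested.

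**Figure D4:**
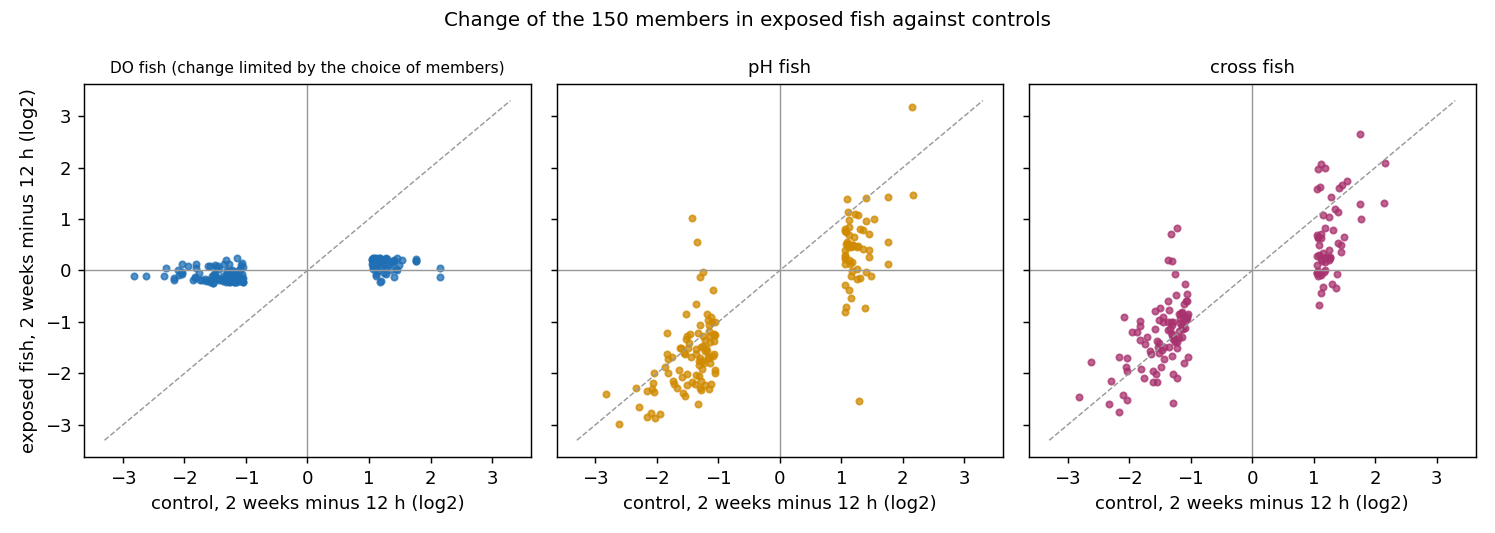
Difference between 2 weeks and 12 h (log2, plain CPM) of each of the 150 members in pH, cross and DO fish against that in control fish. In pH and cross fish 135 and 132 members lie on the control side of 0, and in DO fish the choice of members holds all points within 0.25 of 0.

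In the test of each feature, edgeR called 60 members between cross fish at 2 weeks and at 12 h (6 higher, 54 lower). This is 40% of the members, against 6.85% of all features tested (1.82% higher, 5.03% lower) and 13.4% of those in the level range. All 60 had the direction of the controls, and the median log2 fold change in that direction over the 150 members was 1.18. In 66 members, or 44.0%, the cross fish of both times did not overlap, where this held for 12.9% of all features. The count of 60 rested in part on single fish. It was 27 without cross fish Mys7077, 32 without Mys7078, 35 without Mys7067, 37 without Mys7064 and 38 without Mys7079. Calls over all features fell as well, from 2335 to 1019, 1159, 1386, 1282 and 1267 in the same order. When the members were chosen without DO fish Mys22, 93 of the 150 were called.

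In pH fish, with 2 fish at 2 weeks, edgeR called 42 members (4 higher, 38 lower), or 28%, against 7.41% of all features (2.80% higher, 4.61% lower) and 16.1% of the level range. All 42 had the direction of the controls, with a median log2 fold change over the members of 1.32. The pH fish did not overlap in 107 members, or 71.3%, where 34.3% of all features had no overlap. The count fell to 0 without pH fish Mys53 and to 10 without Mys54, each of which left 1 fish at 2 weeks that was assumed to vary like the other groups. Without either of these fish the calls over all features fell as well. With the members chosen without DO fish Mys22, 65 members were called. In all, 30 members were called in both exposures, 30 in cross alone, 12 in pH alone and 78 in neither. The share of all features called in both is not given here, so nothing is read from this overlap.

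The time change of cross fish was not shown to differ from that of pH fish. For the difference itself edgeR called 0 members and 0% of all features, with a smallest adjusted p of 0.698. At an unadjusted p under 0.05 there were 5 members and 2331 features, DESeq2 called 0 members and 0.0704% of all features, and limma voom 0 members and 0%. The cross group, which by outside knowledge of the study also had low oxygen, had the direction of the controls in 132 of 150 members. DO fish, whose difference was held under 0.25 by the choice, had that direction in 120 of 150, or 80.0%. In the level range 79.6% of features had it in DO fish. With TMM the members' count in DO fish was 114, but downward and upward members moved in opposite ways. Of 93 downward members 72 had the control direction with plain CPM and 90 with TMM, and of 57 upward members 48 and 24. Nothing is read from the DO counts. No test of cross against DO fish is given, since the DO values chose the members.

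The downward members named for cross fish were TRINITY_DN45165_c4_g3, given above, and TRINITY_DN43683_c3_g3. In cross fish it stood at 101.5, 63.6, 15.3 and 19.2 CPM at 12 h, at 11.52, 5.49, 3.66 and 7.26 CPM at 24 h, and at 8.36, 3.35, 5.69 and 6.37 CPM at 2 weeks. Cross fish were low from 24 h on, and the fish of 12 h did not overlap with the later ones. The log2 fold change at 2 weeks was -2.96 (SE 0.50, edgeR adjusted p = 0.000414, lower in 4 of 4 fish), and that at 24 h -2.91 (SE 0.50, adjusted p = 0.00259). In pH fish it stood at 15.8, 35.8, 58.4 and 13.2 CPM at 12 h and at 2.07 and 7.99 CPM at 2 weeks, a log2 fold change of -2.41 (SE 0.65, adjusted p = 0.0188). In DO fish it stood at 9.23, 9.05, 5.98 and 9.05 CPM at 12 h and at 6.36, 8.71, 7.57 and 8.48 CPM at 2 weeks, against 26.5, 49.3, 37.5 and 32.3 CPM in controls at 12 h. At 24 h DO fish stood at 5.01, 26.9 and 4.398 CPM and control fish at 3.63, 29.8, 22.5 and 23.7 CPM, and edgeR did not call the difference of -0.99 (SE 0.51, adjusted p = 0.485).

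TRINITY_DN45165_c4_g3, with its cross values given above, had a log2 fold change of -3.17 in cross fish (SE 0.64, adjusted p = 0.00257 in edgeR, n = 4 and 4, below the 12 h mean in 4 of 4 fish). Cross fish Mys7066, at 4.72 CPM at 12 h, already lay among the fish of 2 weeks. In pH fish the difference was -2.39 (SE 0.82, adjusted p = 0.0668), which did not pass. The calls of this feature and of TRINITY_DN43683_c3_g3 in cross fish held in all 14 alternatives run for them.

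Few members were called higher. TRINITY_DN44197_c8_g7 stood at 0.748, 2.30, 4.32 and 0.478 CPM in cross fish at 12 h and at 5.62, 11.7, 7.12 and 7.37 CPM at 2 weeks. All fish of 2 weeks lay above those of 12 h, and the log2 fold change came to 2.05 (SE 0.54, adjusted p = 0.0158 in edgeR). In TRINITY_DN55582_c2_g9 cross fish stood at 2.80, 5.74, 16.5 and 6.35 CPM at 12 h and at 25.5, 37.1, 35.4 and 27.9 CPM at 2 weeks. Its log2 fold change was 1.97 (SE 0.62, adjusted p = 0.0478), close to the threshold, and the call was lost in 7 of 14 alternatives, that of TRINITY_DN44197_c8_g7 in 4 of 14.

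Among the members called in pH fish, the largest fold change was that of TRINITY_DN44213_c1_g3, at 15.9, 36.8, 20.4 and 33.5 CPM at 12 h and at 2.12 and 3.10 CPM at 2 weeks (log2 fold change -3.06, SE 0.86, edgeR adjusted p = 0.0256). Its cross fish of 2 weeks were divided, with 28.6 CPM in Mys7076 against 2.66, 4.25 and 3.81 CPM. TRINITY_DN44994_c1_g1 stood at 8.68, 16.8, 13.4 and 4.53 CPM at 12 h and at 0.571 and 2.04 CPM at 2 weeks (log2 fold change -2.80, SE 0.72, adjusted p = 0.0146). In both features both fish of 2 weeks lay below all fish of 12 h.

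Of the members called higher in pH fish, TRINITY_DN38893_c0_g1 stood at 4.59, 3.44, 4.99 and 3.44 CPM at 12 h and at 12.3 and 12.3 CPM at 2 weeks (log2 fold change 1.96, SE 0.55, edgeR adjusted p = 0.0232). TRINITY_DN51464_c0_g1 stood at 11.3, 5.63, 7.03 and 6.48 CPM at 12 h and at 19.6 and 22.8 CPM at 2 weeks (log2 fold change 1.84, SE 0.58, adjusted p = 0.0445). Both fish of 2 weeks were above all fish of 12 h in either feature. The 4 calls named for pH were lost without Mys53 and without Mys54. Over 12 alternatives, these included, the call of TRINITY_DN51464_c0_g1 was lost in 6 and that of TRINITY_DN44994_c1_g1 in 2. Those of TRINITY_DN38893_c0_g1 and TRINITY_DN44213_c1_g3 were each lost in 3. TRINITY_DN51464_c0_g1 was also called in cross fish, with a log2 fold change of 1.76 (SE 0.50, adjusted p = 0.0279), while TRINITY_DN38893_c0_g1 had 0.50 there (SE 0.46, adjusted p = 0.569).

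The steps from 12 h to 24 h and from 24 h to 2 weeks were tested separately. Between 12 h and 24 h, edgeR called 14 members in cross fish, all lower, where 2.50% of all features were called. In pH fish it called 0 members and 0.0294% of all features, with 29 members and 8.72% of all features at an unadjusted p under 0.05. DESeq2 called 6 members there (0.531% of all features) and limma voom 0 (0.0411% of all). Between 24 h and 2 weeks edgeR called 27 members in cross fish (8 higher, 19 lower), where 3.89% were called. In pH fish edgeR called 56 (16 higher, 40 lower), where 9.99% were called. The differences between the exposures in these steps were not tested. The cross count at 24 h was 5 without Mys7064 and 4 without Mys7068, and 0 when the compared groups were fitted alone. Over all features these calls fell from 853 to 69, 62 and 6 in the same order. In each fit named next, the calls over all features fell as well. The later cross count was 7 without Mys7077, 8 without Mys7078, 9 without Mys7071 and 11 without Mys7079. The later pH count was 29 without Mys30. It was lower still without Mys53 or Mys54, each of which left 1 fish at 2 weeks.

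The members were set against the 1169 features of the same level range whose control difference was at least as large as that of the last member and whose low-oxygen difference was 0.25 or more. In these the pH fish had the control direction in 93.3% and the cross fish in 95.3%, with medians of 1.23 and 0.96. Of these features 46.5% were called in pH fish and 42.3% in cross fish. The members' shares in pH and cross fish, 90% and 88% with the control direction and 28% and 40% called, were thus no higher. The comparison set was by choice not flat in DO fish, with a median difference of 0.72. In DO fish at 12 h, 22.5% of the comparison set and 91 of 150 members were nearer to the control level of 2 weeks, a difference that the choice of members itself can set.

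The median SD within groups was 0.66 (log2) in the members and 0.65 in the comparison set, against 0.49 in the level range, so this spread was not particular to the members. In the 28 fish that had no part in the choice, the median correlation between pairs of members of their deviations from group means, signed by the control change, was 0.16, against 0.11 in the comparison set and 0.07 in the level range. It was 0.47 between downward members and 0.33 between upward members, and this split is not given for the other sets. Pairs correlated above 0.5 made up 23.4% in the members, 24.6% in the comparison set and 20.7% in the level range. These correlations are a description over features of the same libraries, which share depth and composition. Values that were not whole numbers, as arise when reads are divided between similar transcripts, made up 60.3% of the members' values and 59.1% of those in the level range. The members came from 148 assembly components, of which 2 held 4 of them, so few members could be parts of the same assembled locus by that name. In 147 members every library of the 44 held a count.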

How the data were processed

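Total RNA of white muscle was sequenced as stranded mRNA libraries, per the labels' protocols. For each sampling time the authors deposited a table of unnormalized expected counts per assembled feature, of which 9.60% are not whole. The tools named, per the submitters' processing notes, are RSEM 1.3.0, Bowtie, Trimmomatic 0.36, edgeR and FastQC 0.11.5. How the features were assembled is not known here. Reads of near-identical assembled copies may have been divided among them, which makes single features uncertain.

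The members and the comparison set were chosen with earlier results of these data known. CPM used the column total of unrounded counts, and levels and shifts are on the log2(CPM + 1) scale, which understates changes of low features. For tests, expected counts were rounded to whole numbers and all 44 libraries in 12 groups entered 1 quasi-likelihood fit in edgeR 4.0.16 (R 4.3.3, TMM, filterByExpr with a minimum count of 10 and a total of 15, robust, 2-sided), with Benjamini-Hochberg adjustment over 34070 features and a threshold of 0.05. Log2 fold changes and SE are from that fit, and SE follows from dividing the fold change by the root of F. The script was tested on simulated data. Named members are up to 2 higher and 2 lower per comparison with the largest change, for controls among those without overlap and otherwise among those called. Alternatives were RLE factors, no filter, a minimum count of 30, limma voom with quality weights (limma 3.58.1), DESeq2 1.42.0, only the groups compared, each fish left out, and other settings of the choice of members. Shifts on TMM-scaled CPM were added after the data were seen. Depth sets the counting error only.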

Additional observations from a re-analysis of the deposited data

Results flagged for a closer look

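In 7 of 99 groups of 4 fish checked, 1 fish stood far from the others by Dixon's criterion, which chance alone meets in about 1 group in 20. For the mean shift of all members, DO fish Mys22 at 12 h had 0.42 where the nearest other had 0.89, and control fish Mys25 at 24 h had 0.55 where the nearest other had -0.23. For TRINITY_DN51991_c4_g2, pH fish Mys19 at 12 h stood at 18.8 CPM (nearest other 0.115), control fish Mys50 at 2 weeks at 22.8 CPM (nearest other 9.67), and cross fish Mys7067 at 12 h at 4.72 CPM (nearest other 0.158). TRINITY_DN43683_c3_g3 stood at 5.98 CPM in DO fish Mys23 at 12 h (nearest other 9.05). TRINITY_DN44213_c1_g3 stood at 28.6 CPM in cross fish Mys7076 at 2 weeks (nearest other 4.25). Groups of 2 or 3 fish were not checked in this way.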

How the results depend on the processing

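Over 29 alternatives for cross fish, the count of members with the control direction ranged from 123 to 145. Over 27 alternatives for pH fish it ranged from 128 to 142. The choice of members itself was less stable: of the 150, 48 were kept with a low-oxygen limit of 0.1, 57 with 0.5 and 61 with TMM, and 68 to 129 with 1 fish left out. With a cross fish left out, calls over all features in cross fish from 12 h to 2 weeks ranged from 1019 to 3467. Members called in cross fish from 12 h to 2 weeks ranged from 27 to 93 with 1 fish left out. In pH fish they ranged from 28 to 65 with a fish other than Mys53 or Mys54 left out. Without Mys53 or Mys54, each of which left 1 fish at 2 weeks, they were lower still. They were 73 with only the groups compared, where 2943 of 23954 features were called. With DESeq2 they were 66, where 3786 of 34070 were called. From 12 h to 24 h, cross counts ranged from 4 to 18 with 1 fish left out, while calls over all features ranged from 62 to 1723. Cross counts were 0 with only the groups compared (6 of 21562 features called) and 4 with limma voom (35 of 34070). The pH counts were 2 with no filter (89 of 155122), 1 with only the groups compared (2 of 22468) and 6 with DESeq2 (181 of 34070). From 24 h to 2 weeks, counts with 1 fish left out ranged from 7 to 34 in cross fish. In pH fish they ranged from 29 to 61 with a 24 h fish left out, and were lower without Mys53 or Mys54. With the other alternatives they ranged from 19 to 39 in cross and from 45 to 71 in pH fish. Calls over all features then ranged from 667 to 2159 and from 1565 to 4508. Between DO and control fish at 24 h the members called were 3 with no filter, where 198 of 155122 features were called. They were 20 with limma voom (1289 of 34070) and 6 with DESeq2 (140 of 34070). With 1 fish left out they were 0 to 11, with 0 to 632 calls over all features. The causes were not tested. No named call reversed. No paired analysis was possible because every fish has its own number. With 2 pH fish at 2 weeks, single fish limit what can be called.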
